A study of Mus musculus with 6 samples.

Results

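Serpins of clade A are secreted protease inhibitors and hormone carriers made by hepatocytes, and 9 of them were followed here in the livers of mice given R159 or vehicle. The 9 genes, chosen by name, were the α1-antitrypsin copies Serpina1a, Serpina1b, Serpina1c, Serpina1d and Serpina1e, the antichymotrypsin relatives Serpina3k, Serpina3m and Serpina3n, and Serpina6. All 9 were found among the 18720 rows of the gene table, and all 9 passed the filter on low values. The study sequenced poly(A) RNA from liver of male C57BL/6 mice aged 1 year, all kept on a high-fat diet, with 3 libraries in each group. One group (HFD-R159) was injected intraperitoneally with R159, which the labels give by this code alone, and the other (HFD-Veh) with vehicle, 2 times a week for 12 weeks. Both groups thus share the strain, the diet, the sex and the age. The labels do not say outright that every library is a different mouse. The p-values of the main test refer to the spread of these libraries, which may be technical in part. That spread is moderated towards a trend over genes of like level.

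A serpin inhibits its target by offering an exposed stretch near its carboxyl end, the reactive centre loop, as bait. The protease cuts the loop, stays bound to it and is dragged to the far side of the folded inhibitor, where it is distorted and inactive. α1-antitrypsin guards tissue against neutrophil elastase and is among the most abundant proteins of plasma. Humans have a single α1-antitrypsin gene, whereas the mouse has several near-identical copies whose loops differ. The mouse Serpina3 cluster is likewise an expanded version of the single human antichymotrypsin gene. Serpina6 encodes corticosteroid-binding globulin, a serpin that no longer inhibits proteases and carries glucocorticoids in blood.

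The stretch in which the copies differ most is shown first, to let the copies be compared base by base where they are least alike. The coding sequences were taken from GENCODE M21, a GRCm38 annotation, and the 60-base window of lowest mean pairwise identity was searched in the alignment of each family. In the Serpina1 family it lay at coding bases 1170 to 1229 of 1311 in Serpina1a and 1101 to 1160 of 1242 in the other copies, counted from the start codon. Capitals mark bases that differ between at least 2 of the 5 copies:
Serpina1a: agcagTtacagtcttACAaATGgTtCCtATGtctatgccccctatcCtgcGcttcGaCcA
Serpina1b: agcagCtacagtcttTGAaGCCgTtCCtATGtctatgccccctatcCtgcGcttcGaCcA
Serpina1c: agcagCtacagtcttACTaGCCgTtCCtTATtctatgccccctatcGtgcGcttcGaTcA
Serpina1d: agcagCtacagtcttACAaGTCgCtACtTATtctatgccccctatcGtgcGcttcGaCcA
Serpina1e: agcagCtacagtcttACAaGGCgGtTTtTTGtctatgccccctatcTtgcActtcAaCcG
This window held 18 variable bases of the 86 in the whole coding sequence, with a mean pairwise identity of 84.7% against a median of 97.0% over all windows. It falls in the part of a serpin coding sequence that encodes the reactive centre loop.

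The same search in the Serpina3 family found a window with a mean pairwise identity of 69.4%, against a median of 91.1%, at coding bases 1103 to 1162 of 1257 in Serpina3k and 1097 to 1156 of 1257 in the other members. Capitals again mark bases that differ among the copies:
Serpina3k: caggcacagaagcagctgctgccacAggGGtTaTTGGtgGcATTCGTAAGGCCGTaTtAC
Serpina3m: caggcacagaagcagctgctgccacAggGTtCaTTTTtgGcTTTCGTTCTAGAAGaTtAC
Serpina3n: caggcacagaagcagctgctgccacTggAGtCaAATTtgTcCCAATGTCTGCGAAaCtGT
It held 26 variable bases of 245, again in the region of the loop. All 9 genes lie in one cluster on chromosome 12, where Serpina6 and the 5 Serpina1 genes are on the minus strand and the 3 Serpina3 genes on the plus strand.

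Over the whole coding sequence, loop included, the Serpina1 copies were nearly the same. They were 96.3% to 98.5% identical in pairs, and Serpina1a and Serpina1c were the closest pair. Of the 50-base windows of a transcript, a length chosen to match the reads, 20.7% were found in no other gene's transcripts for Serpina1c, 32.6% for Serpina1a, 49.1% for Serpina1d, 64.2% for Serpina1b and 64.4% for Serpina1e. In Serpina1c 69.4% of windows were shared exactly with Serpina1a. The Serpina3 members were easier to tell apart: 86.0% of windows were unique for Serpina3k, 80.9% for Serpina3m and 93.1% for Serpina3n, and all of them were for Serpina6. The M21 annotation also holds gene models that overlap on one strand, Serpina1b with Serpina1d and Serpina3k with Serpina3m, and an antisense gene, B430119L08Rik, over Serpina1c. How the authors divided shared reads is not given in the sources used here, so the values of Serpina1a and Serpina1c in particular are uncertain as single genes, and sums over the copies are given beside them.

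**Figure D1:**
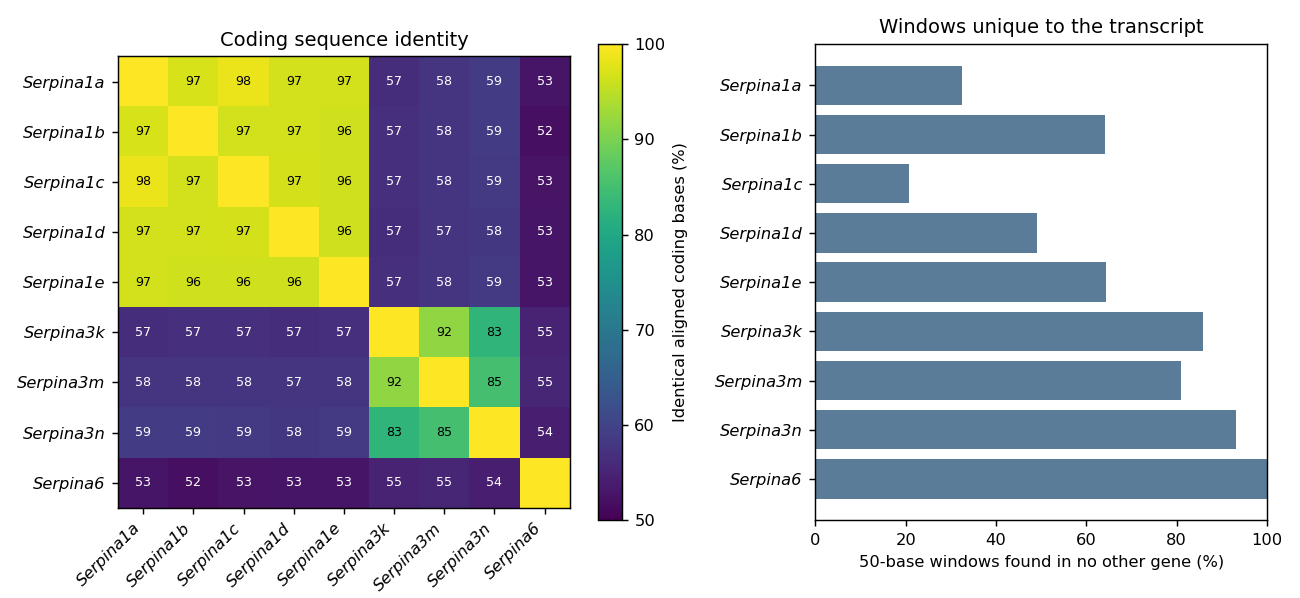
Left, share of identical bases (%) between aligned coding sequences for each pair of the 9 serpin genes. Right, share (%) of each transcript's 50-base windows found in no other gene of GENCODE M21; the 5 Serpina1 copies are over 96% identical, and Serpina1c has the fewest unique windows, 20.7%.

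Estimated depth was 51.24 to 55.71 M reads in the R159 libraries and 65.94 to 76.69 M reads in vehicle. Mitochondrial transcripts made up 8.42% to 13.6% of all values in R159 and 5.01% to 7.43% in vehicle, ranges that do not overlap, and their part in the results was not tested. The R159 libraries were less alike (median Pearson's r across genes with their own group 0.941 to 0.946) than the vehicle libraries (0.980 to 0.984), and R159 replicate 2 stood farthest from vehicle (0.917). Transcript length moved with the groups: a library's deviation from the mean had a Spearman's rho with length, across genes of a library, of 0.0182, -0.597 and -0.486 in R159 replicates 1 to 3 and of 0.336 to 0.504 in vehicle. The members' transcripts were 1361 to 2064 nt long. All 8 hepatocyte markers were detected, and their summed normalised count was 4554068 to 7428069 in R159 and 3709471 to 5639374 in vehicle, ranges that overlap. In pieces of liver, fewer cells of a type and less RNA per cell cannot be told apart.

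Values are normalised estimated counts. Per kilobase of transcript, which allows levels of different genes to be compared, the order of mean levels over the 6 libraries ran from Serpina1c at 249862 ± 97855 (SD, n = 6) over Serpina1b, Serpina1a, Serpina1d, Serpina3k and Serpina1e to Serpina6, Serpina3n and Serpina3m, the lowest at 5178 ± 2017. Several neighbours were not separated in every library. Serpina1c was above Serpina1b in 4 of 6 libraries, Serpina1d above Serpina3k in 4, Serpina3k above Serpina1e in 5, Serpina1e above Serpina6 in 5 and Serpina6 above Serpina3n in 3. Serpina1b was above Serpina1a, Serpina1a above Serpina1d and Serpina3n above Serpina3m in all 6. Per kilobase of coding sequence, which leaves out untranslated ends of uneven annotation, Serpina1b came before Serpina1c, Serpina3k before Serpina1d and Serpina3n before Serpina6. Together the 9 genes took 1.99%, 1.98% and 3.98% of all normalised counts in R159 replicates 1 to 3, and 2.11%, 2.65% and 2.18% in vehicle replicates 1 to 3.

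**Figure D2:**
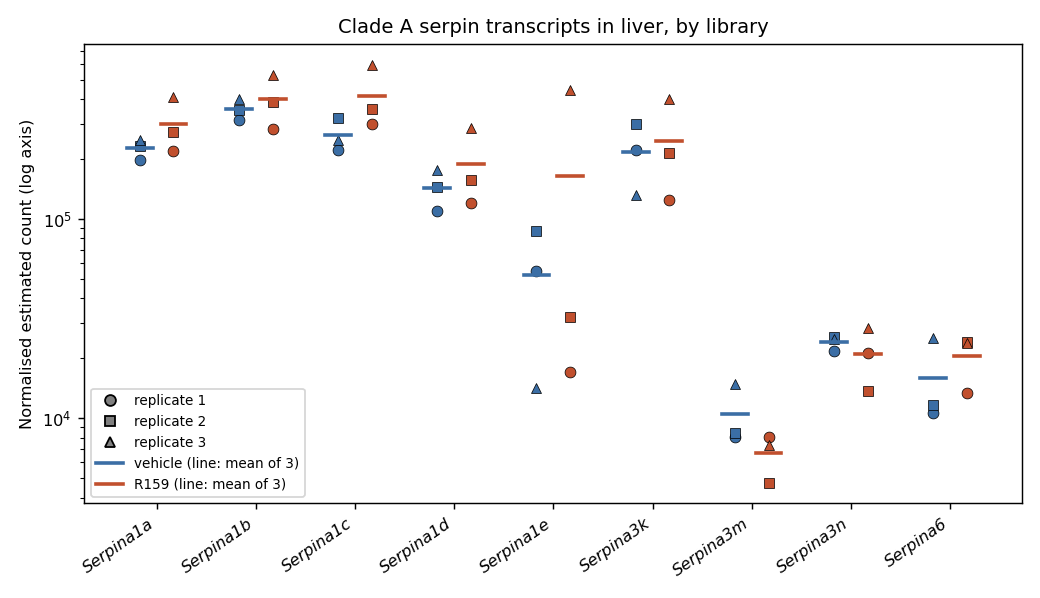
Normalised estimated counts (log axis) of the 9 serpin transcripts in each of 3 vehicle (blue) and 3 R159 (red) libraries; marker shape gives the replicate number and lines are group means. R159 replicate 3 (red triangle) is the highest library for 7 of the 9 genes, beside 14.2% of all tested genes. It is also the highest for Alb and several other hepatocyte plasma proteins. The groups overlap for every gene but Serpina3m.

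The comparison of R159 with vehicle asked whether this secreted family moved with R159, and in these libraries no member passed the test. limma called 0 of the 9 genes at an adjusted p of 0.05, and 0 of 9 had an unadjusted p under 0.05. Over all 16594 genes tested, 27% were called (12.8% higher and 14.2% lower), and 17% (12.7% higher and 4.3% lower) of the 2141 coding genes in the members' range of transcript lengths. Neither share is matched on level. The Serpina1 copies and Serpina3k ranked 13 to 72 by mean level of all rows, and no share for genes of like level was computed. Of 20 other hepatocyte plasma proteins 1 was called. The median log2 fold change of the 9 genes, on the log2(value + 1) scale, was 0.32, beside 0.00069 for all tested genes and 0.17 for coding genes of that length. Of the 9 genes, 7 had values above 0 and 2, Serpina3m and Serpina3n, below 0. Values above 0 were also found for 8305 of the 16594 tested genes and 1358 of the 2141 of like length. The Serpina1 copies among the 7 share sequence and are not independent. Only Serpina3m had groups that did not overlap, 1 of 9, while 46.2% of all tested genes and 34.8% of those of like length had such groups. Intervals were wide: a 95% interval for Serpina1b ran from -0.71 to 0.97 and for Serpina1e from -1.88 to 3.10. They rest in part on a spread shared with genes of like level, not on each gene's own values alone. A missed threshold therefore does not show that the level was the same in both groups.

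**Figure D3:**
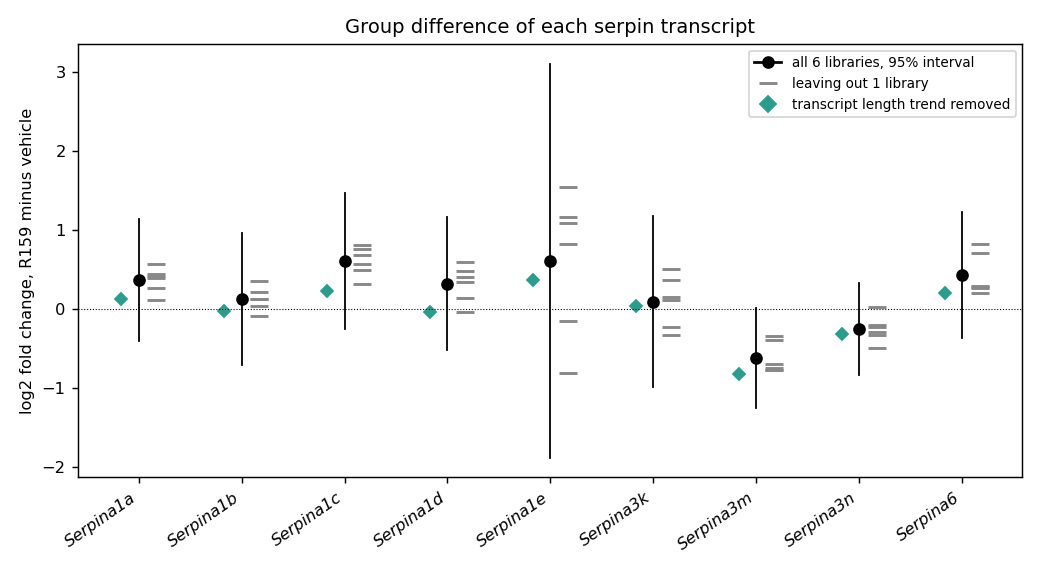
log2 fold change (R159 minus vehicle) of each serpin transcript: black points with 95% intervals from limma on all 6 libraries, grey dashes with 1 library left out, green diamonds with the transcript length trend removed. Every interval includes 0, and the values of Serpina1e run from -0.81 to 1.55 as libraries are left out.

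Serpina1a was at 218922, 271525 and 409858 in R159 replicates 1 to 3. In vehicle replicates 1 to 3 it was at 197295, 232406 and 249417. R159 replicate 3 stood above the rest, at 1.64 times the highest vehicle library, R159 replicate 2 was slightly above the vehicle range and R159 replicate 1 inside it. The group means were 300102 ± 98624 and 226373 ± 26580 (SD, n = 3), with a log2 fold change of 0.36 (SE 0.34, limma adjusted p = 0.45).

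Serpina1b, the most abundant copy by coding length, was at 283795, 386145 and 527582 in R159 and at 313526, 351547 and 400528 in vehicle. Its R159 libraries thus spanned the whole vehicle range (log2 fold change 0.13, SE 0.37, adjusted p = 0.817). Without R159 replicate 3 the value was -0.094.

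Serpina1c differed most among the steadier copies. It was at 298216, 355789 and 593140 in R159 and at 221765, 322755 and 248709 in vehicle. The lowest R159 library lay below vehicle replicate 2, so the groups overlapped (log2 fold change 0.61, SE 0.38, adjusted p = 0.259). Serpina1d, the closest neighbour of Serpina1b on the chromosome, was at 120350, 156719 and 286239 in R159 and at 108991, 145035 and 176508 in vehicle. Only R159 replicate 3 was outside the vehicle range (log2 fold change 0.32, SE 0.37, adjusted p = 0.549), and without it the value was -0.036.

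Serpina1e had the widest spread of the 9 members within both groups. It was at 16992, 32080 and 445795 in R159 replicates 1 to 3 and at 54891, 87402 and 14230 in vehicle replicates 1 to 3. The highest library was 31.3 times the lowest, 26.2 times within R159 alone and 6.14 times within vehicle alone. R159 replicates 1 and 2 lay between the lowest and the middle vehicle library, while R159 replicate 3 was 5.10 times the highest of them. The SD within groups was 2.01 on the log2 scale, rank 4 among 6001 genes with a mean of at least 1000, whose median was 0.225; the other 8 members had SDs of 0.340 to 0.728. Its group difference (log2 fold change 0.61, SE 1.10, adjusted p = 0.705) was -0.81 without R159 replicate 3 (adjusted p = 0.417) and -0.15 without vehicle replicate 3 (adjusted p = 0.942).

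A sum over the 5 Serpina1 copies does not depend on how counted reads were split among them. It would still depend on shared reads that were dropped or credited to other genes, which is unstated. In R159 it came to 938275, 1202258 and 2262614, and in vehicle to 896468, 1139145 and 1089392. R159 replicate 3 was at 1.99 times the highest vehicle library, and the other R159 libraries lay in or just above the vehicle range. In a fit in which the sum replaced the copies, the log2 fold change was 0.40 (SE 0.54, limma adjusted p = 0.608, 95% interval -0.83 to 1.63), and a two-sided exact permutation test over the 6 libraries gave p = 0.4, where 3 against 3 cannot go below 0.1. Without Serpina1e the sum in R159 came to 921283, 1170178 and 1816819, and in vehicle to 841577, 1051743 and 1075162. R159 replicate 3 was again the highest library, though reads of Serpina1e may be counted among the other 4 copies.

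The make-up of the sum was even for 4 copies and not for the fifth. Serpina1a made up 18.1% to 23.3% of the sum in the 6 libraries, Serpina1b 23.3% to 36.8%, Serpina1c 22.8% to 31.8% and Serpina1d 12.2% to 16.2%. Serpina1e made up 1.81%, 2.67% and 19.7% in R159 and 6.12%, 7.67% and 1.31% in vehicle. The share of Serpina1c was 29.2% ± 2.81 in R159 and 25.3% ± 2.79 in vehicle, and that of Serpina1b 28.6% ± 4.64 and 34.2% ± 3.03 (SD, n = 3; two-sided exact permutation p = 0.2 for each). Over the family of 7 exact tests, 2 sums and 5 shares, the adjusted p-values were 0.7 to 1.

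**Figure D4:**
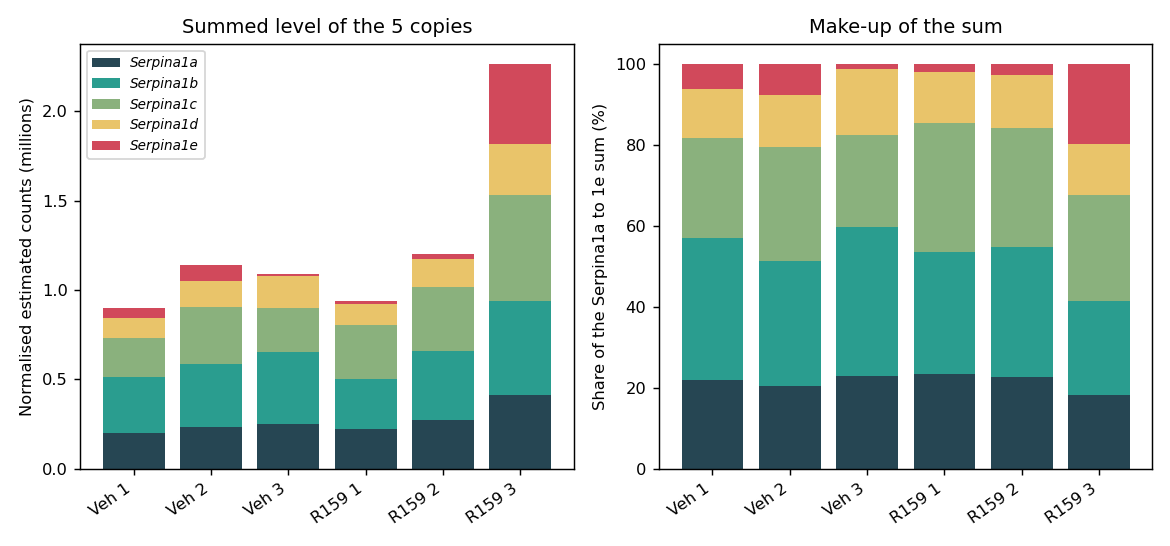
Serpina1a to Serpina1e in each library, stacked, as normalised estimated counts, scaled as the axis states (left), and as a share of their sum in percent (right). R159 replicate 3 holds the largest sum, 2262614, and the largest share of Serpina1e, 19.7%, while vehicle replicate 3 holds the smallest, 1.31%.

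Serpina3k, also called contrapsin, inhibits trypsin-like proteases. It was at 125125, 213089 and 399147 in R159 and at 221590, 299031 and 131919 in vehicle. Both groups were broad, and the R159 range enclosed the vehicle range (log2 fold change 0.09, SE 0.48, adjusted p = 0.899). From low to high, the order of libraries was R159 replicate 1, vehicle replicate 3, R159 replicate 2, vehicle replicates 1 and 2, and R159 replicate 3. For Serpina1e the order differed only in that the lowest pair changed places, although the coding sequences are 57.0% identical. Serpina3k without R159 replicate 3 was at -0.34 and without vehicle replicate 3 at -0.23.

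Serpina3m was at 8077, 4754 and 7318 in R159 and at 8085, 8465 and 14843 in vehicle. All 3 R159 libraries were below all 3 vehicle libraries, but R159 replicate 1 and vehicle replicate 1 were almost equal. The log2 fold change was -0.62 (SE 0.28, 95% interval -1.25 to 0.01, limma adjusted p = 0.127, unadjusted p = 0.0536), the smallest p among the members. It kept its sign in all 16 alternatives, with values of -0.82 to -0.34 and adjusted p of 0.0774 to 0.382.

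Serpina3n, the member known to be induced in liver and brain by inflammation and injury, was at 21244, 13676 and 28311 in R159 and at 21774, 25702 and 24878 in vehicle. R159 replicate 2 was the lowest library and R159 replicate 3 the highest, with the vehicle libraries close together between them and R159 replicate 1 just below those. The means were 21077 ± 7319 and 24118 ± 2071 (SD, n = 3; log2 fold change -0.25, SE 0.26, adjusted p = 0.49), and without R159 replicate 2 the value was 0.028. The sum of Serpina3k, Serpina3m and Serpina3n, of which Serpina3k made up 76.9% to 92.0%, gave a log2 fold change of 0.04 (SE 0.44, limma adjusted p = 0.96; exact permutation p = 1).

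Among the acute phase proteins, a class to which Serpina3n belongs, 4 of 12 genes on the list were called higher and 0 lower, beside 12.8% and 14.2% of all genes, with a median log2 fold change of 0.79. Saa3, a serum amyloid A made outside hepatocytes as well, rose (log2 fold change 1.56, SE 0.30, limma adjusted p = 0.00799) and was called in all 16 alternatives. Apcs, the pentraxin serum amyloid P, had a value of 1.09 (adjusted p = 0.014), Orm1, an orosomucoid, one of 0.83 (adjusted p = 0.0283), and Hamp, the iron hormone hepcidin, one of 1.79 (adjusted p = 0.0472). Apcs lost its call in 3 alternatives and Hamp in 8, and Orm1 kept its call in 8 of 16, being lost without R159 replicate 3 and without each vehicle replicate, among others. With the length trend removed the 3 genes were at 0.40, -0.049 and 0.39 in that order (adjusted p = 0.405, 0.923 and 0.676).

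Serpina6, the glucocorticoid carrier, was at 13310, 24243 and 23904 in R159 and at 10675, 11709 and 25257 in vehicle. Vehicle replicate 3 was the highest of all and vehicle replicates 1 and 2 the lowest, so the groups overlapped (log2 fold change 0.43, SE 0.35, 95% interval -0.37 to 1.23, adjusted p = 0.39). Without vehicle replicate 3 the value was 0.82, the largest of any alternative. Its sequence is shared with no other gene, so the division of reads among copies does not bear on it.

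Of 11 glucocorticoid pathway genes, which cover the receptor, the enzymes that activate or clear the hormone in liver and receptor targets, 4 were called higher and 2 lower, beside 12.8% and 14.2% of all genes (median log2 fold change 0.62). The receptor gene Nr3c1 was at 2473, 2280 and 2748 in R159 and at 3252, 3395 and 4346 in vehicle (log2 fold change -0.54, SE 0.17, limma adjusted p = 0.0403), with all R159 libraries below vehicle. With the length trend removed it was at -0.044 (adjusted p = 0.863), and it lost its call in 9 of 16 alternatives. Hsd11b1, which regenerates active glucocorticoid within cells, was at 25992, 38712 and 36445 in R159 and at 10692, 17922 and 21005 in vehicle, again without overlap (1.06, SE 0.28, adjusted p = 0.023). Leaving out R159 replicates 2 or 3, or vehicle replicates 1 or 2, ended this call (adjusted p up to 0.0719). Most receptor targets on the list had values above 0, and only Fkbp5 was below. Tsc22d3, which encodes the glucocorticoid-induced leucine zipper, rose by 1.42 (SE 0.30, adjusted p = 0.0106), and Fkbp5, a chaperone that dampens the receptor, fell by 1.15 (SE 0.17, adjusted p = 0.00425), each on the log2 scale. Both kept their calls in all 16 alternatives. Pck1, the gluconeogenic enzyme, had a value of 0.86 (adjusted p = 0.0391), and its call was lost whichever of the 6 libraries was left out (adjusted p up to 0.208). Tat was called higher (1.23, limma adjusted p = 0.0464). With 1 library left out, it was called only without vehicle replicate 3 (adjusted p = 0.0263). Per1 (0.93), Dusp1 (0.62) and Sgk1 (0.28) were not called. Tat and these genes were named after their values were seen. The count of 6 called genes was 3, 2 and 3 without R159 replicates 1, 2 and 3, and 2, 2 and 4 without vehicle replicates 1, 2 and 3, and was 4 with the length trend removed. Calls over all genes also fell without each vehicle replicate and with the length trend removed.

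Calls among other serpins are set beside the 27% of all tested genes that were called. Of 17 further clade A genes, 12 were in the table and 10 were tested, and limma called 0, with 0 at an unadjusted p under 0.05 and a median log2 fold change of 0.13. Agt, the angiotensinogen gene, which is a clade A serpin by sequence, had a log2 fold change of 0.21 (SE 0.29, adjusted p = 0.627), and Serpina10, which encodes a cofactor-dependent inhibitor of coagulation factors, one of 0.07 (SE 0.16, adjusted p = 0.755). Of 7 plasma serpins of other clades limma called 0, with 0 at an unadjusted p under 0.05 and a median of -0.064; antithrombin (Serpinc1) was at 0.29 (SE 0.27, adjusted p = 0.441). Without R159 replicate 3, 2 of the 7 were called lower. One of them was Serpinf2, which encodes the plasmin inhibitor α2-antiplasmin (-0.78, adjusted p = 0.0453) and was named after its value was seen. Of 8 serpins that stay in the cell or in the endoplasmic reticulum 7 were tested (median -0.36) and 1 was called, Serpinb9, an inhibitor of granzyme B. It was at 332, 200 and 343 in R159 and at 661, 591 and 462 in vehicle (-0.99, SE 0.26, limma adjusted p = 0.0237), a call that ended when vehicle replicates 1 or 2 were left out, without the empirical Bayes trend and with the length trend removed (adjusted p up to 0.0877).

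Among target proteases, 7 of 11 were in the table and 6 were tested (median log2 fold change -0.038). Of these 1, Prtn3, was called, beside 27% of all tested genes. Prtn3, the neutrophil protease 3, was at 88.9, 47.4 and 320 in R159 and at 34.9, 16.8 and 25.1 in vehicle (log2 fold change 2.13, SE 0.66, limma adjusted p = 0.0413). The call was lost in 9 of 16 alternatives, among them leaving out any library but R159 replicate 2 (adjusted p up to 0.163). Elane, neutrophil elastase, the main target of α1-antitrypsin and a gene outside the naming rule, was at 3.25, 7.19 and 56.4 in R159 and at 14.9, 5.83 and 14.2 in vehicle (adjusted p = 0.958). Neutrophil markers, of which 7 of 8 were in the table, had 0 called of 6 tested (limma; 2 at an unadjusted p under 0.05; summed level 425 to 1265 in R159 and 230 to 515 in vehicle).

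**Figure D5:**
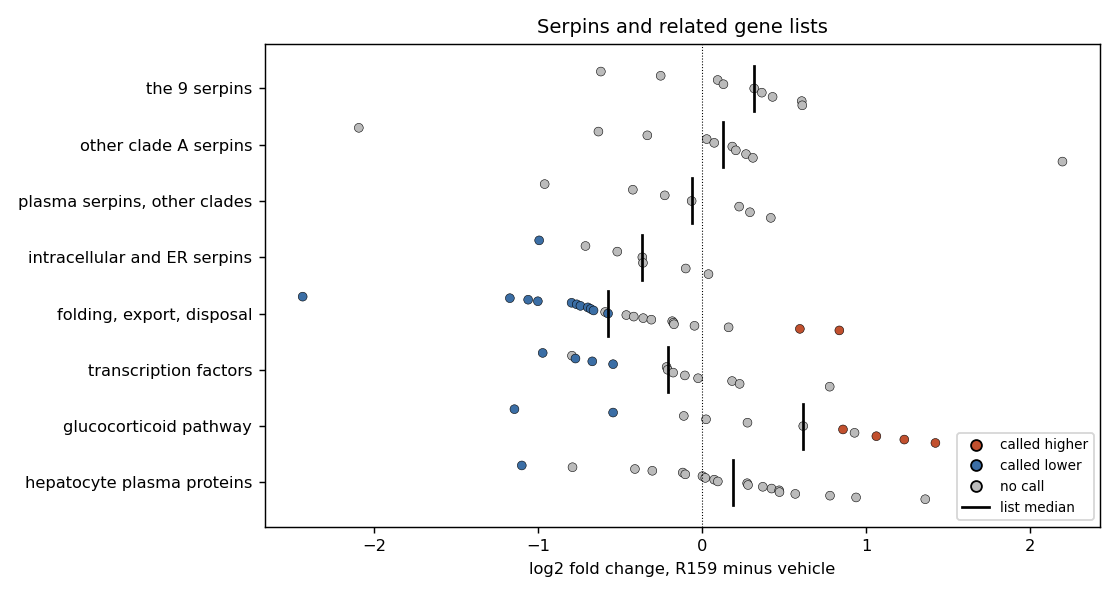
log2 fold change (R159 minus vehicle) of the genes in each list, 1 point per tested gene, red where called higher, blue where called lower and grey where not called; black ticks are list medians. The 9 serpins have no called gene, while the folding, export and disposal list has 2 called higher and 11 called lower.

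Genes that handle serpins inside the cell were often called. Serpins are folded and glycosylated in the endoplasmic reticulum, loaded into transport vesicles by cargo receptors and, when misfolded, handed to a disposal pathway that is known best from a mutant form of human α1-antitrypsin. Of 23 genes of folding, export and disposal, 11 were called lower and 2 higher, beside 14.2% and 12.8% of all genes, with a median log2 fold change of -0.57 beside 0.00069 over all tested genes. The difference between this list and the 9 serpins was not tested.

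Canx encodes calnexin, the chaperone that holds glycoproteins until they are folded. It was at 10582, 7961 and 9792 in R159 and at 19571, 20992 and 23016 in vehicle, with no overlap (log2 fold change -1.17, SE 0.17, limma adjusted p = 0.00402). Man1b1 and Edem3, mannose-trimming factors that mark misfolded glycoproteins for disposal, fell by 0.77 and 1.00 on the log2 scale (adjusted p = 0.00653 and 0.00568), and Sel1l, the scaffold of the disposal complex, fell by 1.06 (adjusted p = 0.00787). These 4 were called in all 16 alternatives, but with the length trend removed their values were -0.84 for Canx, -0.50 for Man1b1, -0.51 for Edem3 and -0.57 for Sel1l.

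Lman1 encodes ERGIC-53, the cargo receptor that carries α1-antitrypsin out of the endoplasmic reticulum. It was at 7099, 7510 and 6840 in R159 and at 9385, 11860 and 13972 in vehicle. All R159 libraries were below all vehicle libraries (log2 fold change -0.70, SE 0.18, adjusted p = 0.0217). Its call was lost without R159 replicate 3 (adjusted p = 0.0541), vehicle replicate 2 (0.0882) or vehicle replicate 3 (0.0857), without the empirical Bayes trend (0.0571) and with the length trend removed (-0.32, adjusted p = 0.167). The count of called genes on the list was 13, and 5 without vehicle replicate 2, 7 without vehicle replicate 3 and 7 with the length trend removed, then 1 higher and 6 lower. Calls over all genes fell as well in each of these settings, with the counts given in the closing section.

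Of 13 transcription factors that drive serpin genes in liver, 4 were called lower and 0 higher, beside 14.2% and 12.8% of all genes (median log2 fold change -0.21). Hnf4a, a regulator of hepatocyte identity, was at 24314, 18094 and 21164 in R159 and at 27755, 35511 and 38074 in vehicle (log2 fold change -0.67, SE 0.20, limma adjusted p = 0.0382). Stat3, the effector of interleukin-6 on acute phase genes, had a value of -0.97 (adjusted p = 0.0199), Stat5b, the effector of growth hormone, one of -0.77 (adjusted p = 0.0209), and Nr3c1 the value given above. The calls of Stat3, Stat5b and Hnf4a were lost in 4, 6 and 7 of 16 alternatives. With the length trend removed 0 of the 13 were called (limma, 3 at an unadjusted p under 0.05), and 0 were without vehicle replicate 2 (5) or vehicle replicate 3 (4). In each of these settings calls over all genes fell as well. Without R159 replicate 2 only Stat3 was called.

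Of 20 other hepatocyte plasma proteins (median log2 fold change 0.19) 1 was called, beside 27% of all tested genes. It was Apob, the structural protein of very low density lipoprotein, which was lower (log2 fold change -1.10, SE 0.25, limma adjusted p = 0.0153). Apob lost its call without vehicle replicate 2, without vehicle replicate 3 and with the length trend removed (adjusted p up to 0.102). Alb (0.28, adjusted p = 0.806) and Ttr (0.78, adjusted p = 0.152), which encode albumin and transthyretin, were not called. R159 replicate 3 was the highest library for Alb, Apoa1, Kng1, Apoh, Ambp, Fgb, Fga, Fgg, Hrg, Vtn, Hpx and Ahsg. It was not for Ttr, Apob, Apoa2, Rbp4, Trf, Itih4, Itih1 and Gc. All but Alb, Ttr and Apob were named after their values were seen.

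Markers of other cells were checked beside these results. Their counts stand beside 12.8% of all tested genes called higher and 14.2% called lower. Erythroid markers had 4 of 6 called higher, with summed levels of 40705 to 59912 in R159 and 12935 to 21824 in vehicle, and B and plasma cell markers 2 of 6 higher (1412 to 5394 against 890 to 1187). Stellate cell markers had 3 of 7 lower (10951 to 23339 against 16598 to 29453) and Kupffer cell markers 2 of 7 lower (10835 to 14559 against 13605 to 20250). The Kupffer cell markers did not go one way: their median log2 fold change was 0.20, and Marco (3.07, limma adjusted p = 0.0619) and Timd4 (2.09, adjusted p = 0.0872), named after their values were seen, were not called but had all R159 libraries above vehicle. Cholangiocyte markers had 1 of 5 called higher (summed level 2052 to 4141 against 4140 to 12107). Most of that sum was Spp1 (1595 to 3162 against 3384 to 11470), which was not called. The called gene was Krt7 (1.32, limma adjusted p = 0.0251). Krt19 was also above 0, and Sox9 and Epcam were below 0, without a call. These genes were named after their values were seen. Markers of T and NK cells, sinusoidal endothelium and adipocytes had 0 called by limma, with 0, 2 and 0 at an unadjusted p under 0.05, and 2 of 6 adipocyte genes were in the table, and 1 pancreatic acinar gene was called higher of the 1 tested. No marker in the table was at 0 in every library, and the part of these cells in the serpin values was not tested.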

How the data were processed

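The authors deposited 1 table per library with a gene symbol and a normalised value, a signal that is an estimated count divided by 1 factor per library. Per the submitters' processing notes the build was mm39 and the tools included STAR 2.7.8a, cutadapt and FastQC 0.11.9, R 4.2.3 and DESeq2 under version 3.5, whose roles are unstated. Which program counted reads, and whether it used strand, was unstated too. Low values fell near multiples of 1 step per library, from which the depth was estimated, but many were not whole multiples, and no count model was run.

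Genes with a mean of at least 10 (16594 of 18720) entered limma 3.58.1 (R 4.3.3; empirical Bayes with trend, group only) on the log2(value + 1) scale, with Benjamini-Hochberg adjustment over all tested genes and a threshold of 0.05. Fold changes on this scale understate the change of low genes. The empirical Bayes step draws each gene's variance towards a trend with mean level. An SE can thus lie above or below what the gene's own values would give. Same-numbered libraries of the groups were not treated as paired in the main fit. Their deviations correlated at -0.0981, 0.0314 and 0.108, but with 3 libraries per group these values cannot settle whether they were paired. Lengths and coding sequences came from GENCODE M21 (GRCm38, not the build of the values) and were aligned with MAFFT 7.526. The longest coding transcript gave a length for 81.4% of tested genes. Members and lists were chosen with earlier results of these data known. Named genes were the 9 members, the up to 4 called genes of smallest p in each list, and genes always named (Lman1, Hnf4a, Nr3c1, Agt, Serpina10, Serpinc1, Alb, Ttr). Values of 1 gene that the rule names, and of 1 other gene, are not reported here.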

Additional observations from a re-analysis of the deposited data

How the results depend on the processing

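In 16 alternatives 0 of 144 member values passed the threshold, and 131 kept their sign. The values of other sign under quantile normalization were -0.030 for Serpina1a, -0.40 for Serpina1b, -0.20 for Serpina3k, -0.062 for the Serpina1 sum, and -0.37 for the Serpina3k, Serpina3m and Serpina3n sum. With rescaling without the 20 highest genes, which moved the median of all genes to -0.11, they were -0.015 for Serpina3k, -0.068 for its sum and -0.036 for Serpina10, and the calls over all genes were 1501 higher and 2497 lower (main 2125 and 2354). With the length trend removed they were -0.027 for Serpina1b, -0.036 for Serpina1d, -0.062 for the Serpina3 sum and -0.049 for Orm1. That setting called 2521 genes in all, of the 13501 with a length, 7 on the folding list and 0 transcription factors. Leaving out each library gave -0.094 to 0.35 for Serpina1b, -0.036 to 0.59 for Serpina1d, -0.81 to 1.55 for Serpina1e, -0.34 to 0.50 for Serpina3k, -0.50 to 0.028 for Serpina3n, -0.36 to 0.38 for the Serpina3 sum, -0.060 to 0.52 for Agt and -0.030 to 0.17 for Serpina10. It gave 1841 to 5425 genes in all (main 4479; 2500, 1841 and 2183 without vehicle replicates 1, 2 and 3), 5 to 14 on the folding list, 0 to 3 transcription factors, 2 to 4 glucocorticoid genes and 0 to 2 plasma serpins. List counts under these settings were added after seeing the data. With a replicate block 3945 genes and 0 members were called, and Hnf4a (adjusted p = 0.0532) and Nr3c1 (0.0518) were not; of 3 R159 libraries 1 correlated best with the vehicle library of its own number. Beyond the construction of a setting, the cause was not tested.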
